A study of Mus musculus with 4 samples.

Results

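Keratins are the intermediate filament proteins of epithelial cells, and 9 of their genes, together with the basal cell transcription factor gene Trp63, were followed in RNA from whole mouse lungs at E16.5. The members were chosen by name as genes of basal (Krt5, Krt14, Krt15, Krt17, Trp63) and luminal (Krt4, Krt7, Krt8, Krt18, Krt19) airway epithelium, and all 10 were found among the 22556 genes of the table. Control embryos carried Shh-Cre with 1 floxed Stk11 allele (Shh-Cre; Stk11F/+), and Shh-Stk11 embryos carried Shh-Cre with both alleles floxed (Shh-Cre; Stk11F/F), so that both genotypes had the driver. There were 2 libraries of each, called Control 1, Control 2, Shh-Stk11 1 and Shh-Stk11 2. The strain was labelled C57BL/6, while the methods of the study describe mixed backgrounds. Shh-Cre is active in endoderm, from which lung epithelium arises, and all other cells of the lung kept Stk11. The libraries are called independent biological replicates in the methods, but litter and sex were not given, so p-values measure the spread between these libraries.

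A keratin filament is built from pairs of 1 type I and 1 type II protein. KRT8 and KRT7 are type II and KRT18 and KRT19 are type I keratins of simple epithelia, the single-layered kind that lines airways and air sacs. KRT5 (type II) and KRT14 (type I) are the pair of basal cells, the progenitors that rest on the basement membrane of the trachea and large airways, and TRP63 is the transcription factor that defines those cells. KRT15 is a type I keratin of basal layers and of other epithelial progenitors, KRT17 is a type I keratin of basal and stressed epithelium, and KRT4 is a type II keratin of stratified mucosa.

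Values are FPKM, a read level per transcript length and per library depth, so that levels of different genes can be compared. The low values stepped as single reads would, which put the depth at 31.0 to 38.3 M reads per library. Stk11, the deleted gene, was at 43.99 and 45.5 FPKM in the Controls against 29.5 and 25.95 FPKM in the Shh-Stk11 libraries. Its log2 fold change of -0.69 (SE 0.125) had an adjusted p of 0.0499 in limma, at the edge of the threshold, and was no longer called in 12 of 15 alternative settings. Nkx2-1, which defines lung epithelium, was between 169.5 and 207.2 FPKM in all 4 libraries. The genotypes were not matched for sex, since Xist was at 65.1 to 169 FPKM in 3 libraries and at 0.239 FPKM in Shh-Stk11 2, where the Y-linked gene Ddx3y reached 23.5 FPKM.

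The keratins of simple epithelium were abundant and kept 1 order in all 4 libraries. Krt19 had the highest level, between 262.8 and 351.1 FPKM, followed by Krt7 at 187.7 to 255.8 FPKM, Krt18 at 174.1 to 235.5 FPKM and Krt8 at 163.7 to 213.2 FPKM. Within a library Krt19 exceeded Krt7 by 1.37 to 1.45 times, and their ranges over the libraries did not overlap. The next steps were smaller, from 1.03 to 1.18 times between Krt7 and Krt18 and from 1.06 to 1.2 times between Krt18 and Krt8, and there the ranges over the libraries did overlap. Krt15 came next, 4.15 to 9.67 times below Krt8, and Krt4 lay 17.1 to 54.6 times below Krt15. Krt14, Krt17, Trp63 and Krt5 were each under 0.4 FPKM in every library, as the plot of levels by library shows.

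**Figure D1:**
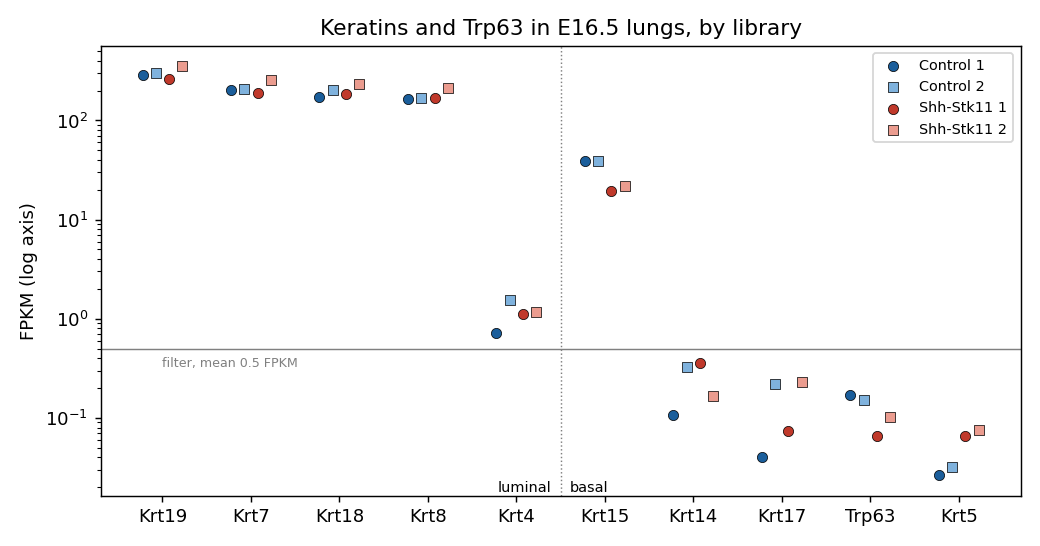
FPKM of the 10 genes on a log axis, 1 point per library (blue Control, red Shh-Stk11; circles replicate 1, squares replicate 2), with luminal genes left and basal genes right of the dotted line and the filter for testing as a horizontal line. Krt19, Krt7, Krt18 and Krt8 sit between 163.7 and 351.1 FPKM, Krt15 is the only basal gene above the line and separates the genotypes, and 4 basal genes lie below it.

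To ask which members differed without epithelial STK11, log2(FPKM + 0.1) was compared with limma over the 13770 genes whose mean reached 0.5 FPKM. Of the 10 members, 6 passed this filter on level (Krt15 and the 5 luminal keratins), and 4 basal genes did not. Of these 6, 1 was called at a limma adjusted p under 0.05, Krt15, which was lower, and 0 were called higher. Krt15 was also the single member of the 6 with an unadjusted p under 0.05 in limma, a share near that of all tested genes (15.2%). Over all tested genes 2.27% were called, 1.29% lower and 0.98% higher. The groups did not overlap for Krt15, which was lower, and for Krt8, which was higher, against 46.8% of all tested genes (27.6% lower and 19.2% higher).

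Krt15 was lower in the Shh-Stk11 libraries, by a log2 fold change of -0.93. It was at 39.43 FPKM in Control 1, at 39.34 in Control 2, at 19.24 in Shh-Stk11 1 and at 22.05 in Shh-Stk11 2. The Controls lay close together and both Shh-Stk11 libraries were well below them, so that the means were 39.4 ± 0.0622 against 20.6 ± 1.99 FPKM (SD, n = 2 each). This fold change (SE 0.126, 95% interval -1.23 to -0.63) came with an adjusted p of 0.0227 in limma. These levels rested on about 883 to 2235 reads per library. The call was lost in 5 of 15 alternative settings, among them replicate number as a block (adjusted p 0.11) and the removal of Control 1 (0.0828), Control 2 (0.0883) or Shh-Stk11 1 (0.0771), while the fold change stayed between -0.77 and -1.17. In whole lungs, fewer cells with Krt15 and less Krt15 RNA per cell cannot be told apart.

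Further measures describe where Krt15 stood among epithelial genes. Its share of the summed FPKM of the 9 keratins was 4.52% and 4.29% in the Controls and 2.33% and 2.04% in the Shh-Stk11 libraries, a difference of -2.22 percentage points. The groups did not overlap, but an exact two-sided permutation test of 2 against 2 libraries can give no p below 0.333, and that was its value here. Against the median of 22 general epithelial genes (Epcam, Cdh1, Nkx2-1 and others), Krt15 was 0.54 and 0.60 higher on the log2 scale in the Controls, and its log2 difference from that median was -0.64 and -0.56 in the Shh-Stk11 libraries.

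The genes with the pattern most like that of Krt15 over the 4 libraries, by the root mean square difference of centred log2 values, were Lrrc51 (0.0322), Pir (0.0411) and Rab6b (0.0476). Their log2 fold changes, which this choice fixes to be close to that of Krt15, were -0.90, -0.95 and -1.03. In all, 26 tested genes came within 0.1 of Krt15 by this measure. Of the genes in the marker lists described further on, Cckar of airway secretory cells was nearest (0.137).

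The keratins of simple epithelium did not pass the test. Krt8 was at 163.7 and 167.2 FPKM in the Control libraries and at 169.7 and 213.2 FPKM in the Shh-Stk11 libraries. Both Shh-Stk11 libraries exceeded both Controls, but Shh-Stk11 1 by little (log2 fold change 0.20, 95% interval -0.18 to 0.58, limma adjusted p 0.606). Its partner Krt18 was at 174.1 and 201.2 FPKM in the Control libraries and at 183.1 and 235.5 FPKM in the Shh-Stk11 libraries, and the groups overlapped (log2 fold change 0.15, interval -0.27 to 0.57, limma adjusted p 0.736). Krt7, a marker of airway and glandular epithelium, was at 204.9 and 206.7 FPKM in the Controls, with 1 Shh-Stk11 library below them at 187.7 FPKM and 1 above at 255.8 FPKM (log2 fold change 0.09, interval -0.35 to 0.53, limma adjusted p 0.857).

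Krt19, the smallest keratin and the most abundant one here, showed the same spread, at 289.3 and 300.4 FPKM in the Control libraries and at 262.8 and 351.1 FPKM in the Shh-Stk11 libraries (log2 fold change 0.04, interval -0.40 to 0.48, limma adjusted p 0.937). Krt4 was low. Relative to its level, it varied most of the 5 luminal keratins between the Controls, at 0.722 and 1.56 FPKM. Both Shh-Stk11 libraries lay between these values at 1.13 and 1.17 FPKM (log2 fold change 0.10, interval -0.78 to 0.98, limma adjusted p 0.93). For Krt8, Krt18, Krt7 and Krt19 alike, Shh-Stk11 2 held the highest value of the 4 libraries. Without that library the log2 fold change of Krt8 was 0.037, and those of Krt7 (-0.13), Krt18 (-0.032) and Krt19 (-0.17) turned negative. Centring each library on the general epithelial genes takes 0.235 off every log2 fold change, so that those of all 5 luminal keratins, which lay between 0 and that value, became negative by construction.

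**Figure D2:**
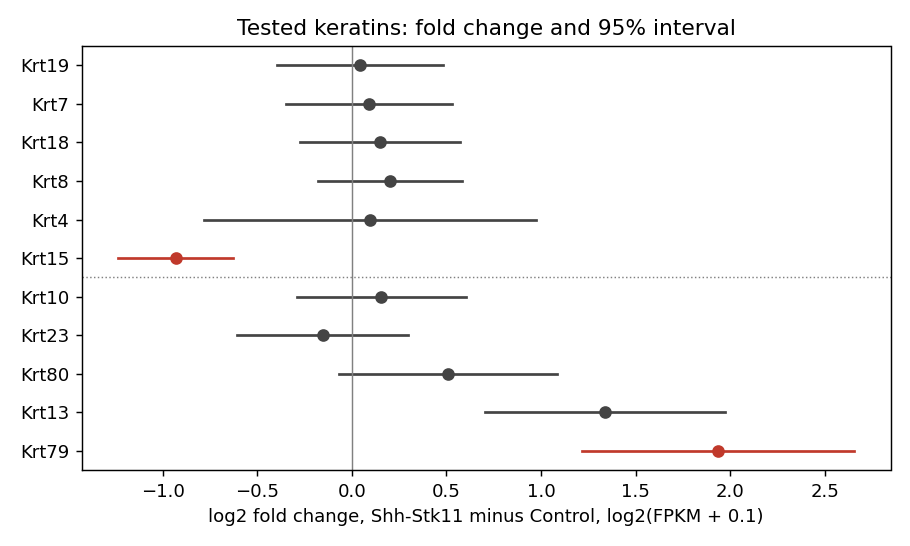
Log2 fold change (Shh-Stk11 minus Control, on log2(FPKM + 0.1)) of the 6 tested members above the dotted line and of the 5 other tested keratins below it, with 95% intervals from limma and the genes past an adjusted p of 0.05 in red. Krt15 (-0.93) and Krt79 (1.93) are red, the intervals of the 5 luminal keratins include 0, and that of Krt13 lies above 0 without an adjusted p under 0.05.

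Since keratins assemble in pairs, the ratio of partners was taken within each library. Krt8 stood at 0.884 times Krt18 in the Controls and at 0.916 times in the Shh-Stk11 libraries (geometric means), a log2 difference of 0.05 with overlapping groups (exact permutation p 1) that was 0.14 without Control 1 and -0.038 without Control 2. Krt8 to Krt19 went from 0.561 to 0.626 times, with log2 ratios of -0.82 and -0.85 against -0.63 and -0.72, and Krt7 to Krt19 from 0.698 to 0.721 times, a direction that turned (log2 difference -0.046) once the trend on length and GC content was removed. The log2 difference of Krt7 to Krt19, 0.048, was 0.027 without Control 2. In both ratios to Krt19, the groups did not overlap, at the smallest possible exact permutation p of 0.333. The sum of the type II members was 0.714 times that of the type I members in the Controls and 0.771 times in the Shh-Stk11 libraries, where the lower Krt15 is part of the type I sum. Krt4 to Krt19 was at 0.0036 and 0.00378 times with overlapping groups (exact permutation p 1).

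The summed FPKM of the 9 keratins was 872.4 and 917 in the Controls and 824.1 and 1079 in the Shh-Stk11 libraries, which overlapped (exact permutation p 1). The make-up of this sum varied little. Krt19 held 31.9% to 33.2% of it, Krt7 22.5% to 23.7%, Krt18 19.95% to 22.2% and Krt8 18.2% to 20.6%. The share of Krt8 was higher in both Shh-Stk11 libraries (20.6% and 19.8%) than in both Controls (18.8% and 18.2%), and that of Krt19 was lower (31.9% and 32.5% against 33.2% and 32.8%), both at an exact permutation p of 0.333.

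**Figure D3:**
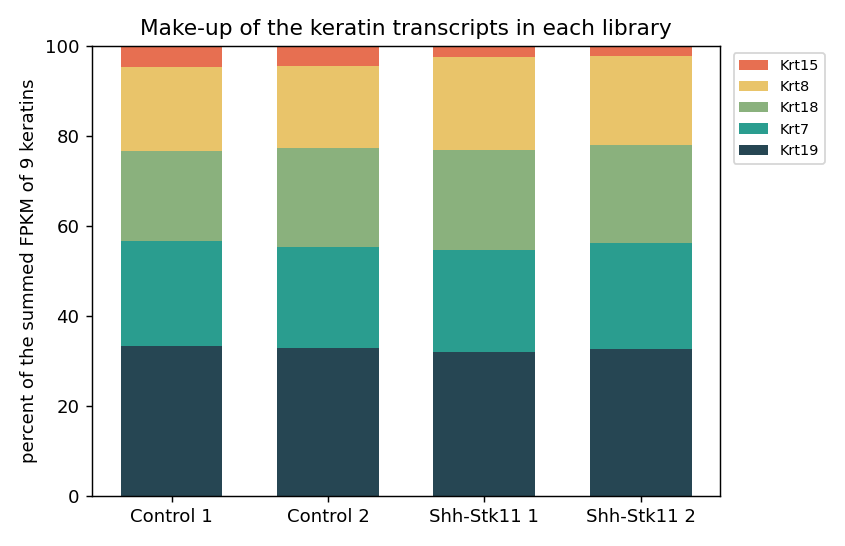
Percent of the summed FPKM of the 9 keratins held by the 5 most abundant ones, 1 stacked bar per library. The segments of Krt19, Krt7, Krt18 and Krt8 keep similar sizes in the 4 bars, whereas that of Krt15 shrinks from 4.52% and 4.29% in the Controls to 2.33% and 2.04%.

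Krt8 and Krt18 are neighbours on chromosome 15 and Krt7 lies in the same cluster. The 250 bases before the start of each gene are shown because these 3 genes were abundant at like levels. They are RefSeq sequences of GRCm38.p6, 5′ to 3′ on the strand of the gene, and capitals mark the GC box GGGCGG or its complement, and the TATA-like motif ATAAAAG.
Krt7 (chr15:101412153-101412402, + strand): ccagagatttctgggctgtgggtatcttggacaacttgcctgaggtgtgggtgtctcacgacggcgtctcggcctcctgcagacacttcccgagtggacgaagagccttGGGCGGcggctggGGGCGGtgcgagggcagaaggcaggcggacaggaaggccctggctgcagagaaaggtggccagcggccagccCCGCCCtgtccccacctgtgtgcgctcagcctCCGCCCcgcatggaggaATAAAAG
Krt8 (chr15:102004343-102004592, - strand): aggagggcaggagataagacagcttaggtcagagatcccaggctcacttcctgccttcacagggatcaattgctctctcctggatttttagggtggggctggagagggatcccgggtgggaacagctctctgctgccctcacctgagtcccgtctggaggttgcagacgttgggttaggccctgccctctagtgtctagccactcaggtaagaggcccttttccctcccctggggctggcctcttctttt
Krt18 (chr15:102027966-102028215, + strand): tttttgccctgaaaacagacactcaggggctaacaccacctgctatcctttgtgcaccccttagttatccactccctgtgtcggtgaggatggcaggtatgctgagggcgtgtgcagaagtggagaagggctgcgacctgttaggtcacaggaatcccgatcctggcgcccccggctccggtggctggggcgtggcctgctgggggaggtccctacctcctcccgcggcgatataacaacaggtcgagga
Of the letters searched on both strands, the Krt7 window held 4 GC boxes, which 32.7% of all 32851 windows of this length contain at least once, and 1 ATAAAAG, held by 4.83% of windows. The Krt8 and Krt18 windows held neither. Neither the AP-1 motif TGANTCA (6.75% of windows) nor the TATA box TATAAA (12.4%) was in any of the 3. ATAAAAG was added to the search after the sequences had been seen.

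The other basal genes were near the limit of detection in these lungs. Krt5 was at 0.0265 and 0.0319 FPKM in the Controls, worth 2 estimated reads in each, and at 0.0653 and 0.0758 FPKM in the Shh-Stk11 libraries, worth 4 and 5 reads. With the Controls under 3 reads, no fold is given. Its usual partner Krt14 was at 0.108 and 0.327 FPKM in the Controls (about 6.1 and 15.3 reads) and at 0.357 and 0.165 FPKM in the Shh-Stk11 libraries (16.3 and 8.1 reads), and the groups overlapped. Krt17 was at 0.0402 and 0.218 FPKM in the Controls (2.1 and 9.2 reads) and at 0.0745 and 0.23 FPKM in the Shh-Stk11 libraries (3.1 and 10.2 reads), again with overlap.

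Trp63 was lower in both Shh-Stk11 libraries, at 0.0664 and 0.103 FPKM (10.6 and 17.6 reads), than in both Controls, at 0.17 and 0.152 FPKM (33.5 and 24.8 reads). When genes of at least 0.1 FPKM were tested, its log2 fold change was -0.51 with a limma adjusted p of 0.547. Those of Krt14 (0.22, limma adjusted p 0.865) and Krt17 (0.18, limma adjusted p 0.907) did not pass either, and Krt17 had under 3 reads in Control 1. Such fold changes are understated, since the 0.1 FPKM added before taking logs was not small beside the levels of these genes. Krt5 was below the filter of 0.1 FPKM as well. Krt15 was far above its basal companions in every library. The log2 ratio of Krt15 to Krt14 ranged from 5.75 to 8.51 with overlapping groups (exact permutation p 0.667). That of Krt15 to Krt17 ranged from 6.58 to 8.01 in 3 libraries, and none is given for Control 1, where Krt17 had under 3 reads.

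**Figure D4:**
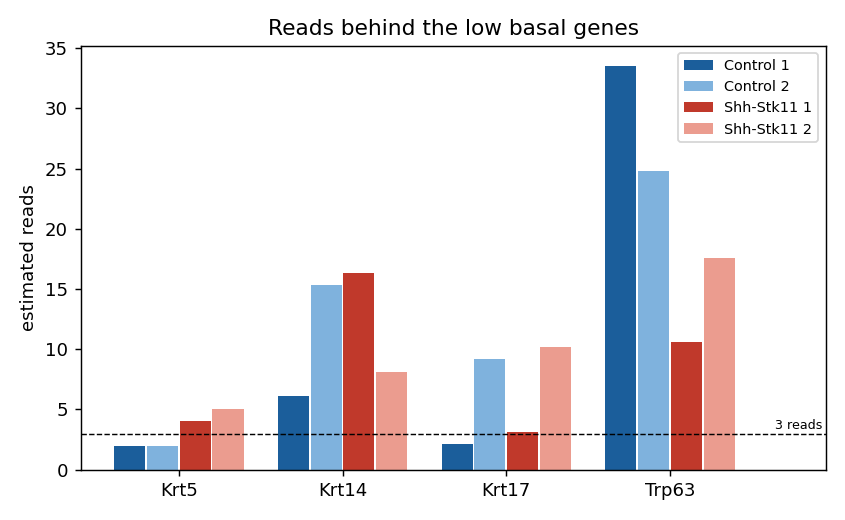
Estimated reads (FPKM turned into reads by the recovered depth and the annotated transcript length) behind Krt5, Krt14, Krt17 and Trp63, 1 bar per library, with 3 reads as a dashed line. Krt5 has 2 to 5 reads, Krt14 and Krt17 overlap between the genotypes, and Trp63 has 33.5 and 24.8 reads in the Controls against 10.6 and 17.6.

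The windows listed before a RefSeq start of Krt5 and Krt14, the pair at trace level, are shown with the same marking as above. A gene can have several such starts, and whether the Krt14 window lies before its main start or within the gene was not checked.
Krt5 (chr15:101712906-101713155, - strand): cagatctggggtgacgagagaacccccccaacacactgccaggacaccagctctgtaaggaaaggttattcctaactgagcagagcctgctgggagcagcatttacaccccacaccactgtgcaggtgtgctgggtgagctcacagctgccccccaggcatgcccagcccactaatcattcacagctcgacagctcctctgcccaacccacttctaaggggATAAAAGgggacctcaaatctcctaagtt
Krt14 (chr11:100206031-100206280, - strand): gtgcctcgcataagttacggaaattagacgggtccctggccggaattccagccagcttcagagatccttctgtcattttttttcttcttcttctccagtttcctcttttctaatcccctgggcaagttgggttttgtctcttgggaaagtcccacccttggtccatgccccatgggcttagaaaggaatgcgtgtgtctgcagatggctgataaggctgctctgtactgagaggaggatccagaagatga
The Krt5 window held 1 ATAAAAG and the Krt14 window held none of the 4 motifs. The windows of Krt15, Krt17, Krt19, Krt4 and Trp63 are not analysed here.

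The rest of the family was counted to place the members in it. Of 38 other keratin genes numbered without a letter, 12 were listed at 0 in every library, 13 were above 0 in some library but at most 0.1 FPKM in each, 8 were higher with a mean under 0.5 FPKM, and 5 were tested. Of the 5, 1 was called, against 2.27% of all tested genes. This was Krt79, a type II keratin of stratified skin and hair follicle openings, which was higher. It was at 0.305 and 0.435 FPKM in the Control libraries and at 1.87 and 1.51 FPKM in the Shh-Stk11 libraries (about 26.1 and 30.7 against 129 and 112 reads). The log2 fold change was 1.93 (SE 0.299) with a limma adjusted p of 0.0329, which was lost in 5 of 14 alternatives, with values of 0.0755 to 0.104 without Control 1, Control 2 or Shh-Stk11 1 and 0.154 with replicate number as a block. With a pseudocount of 1 in place of 0.1 its log2 fold change was 0.97.

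Krt13, a type I keratin of stratified mucosa and the usual partner of KRT4, was at 0.735 and 0.543 FPKM in the Control libraries and at 1.64 and 1.87 FPKM in the Shh-Stk11 libraries. The groups did not overlap, and its log2 fold change of 1.34 (SE 0.264) had a limma adjusted p of 0.0623. It passed the threshold in 1 of 14 alternatives, eBayes without a trend (0.0357), and its log2 fold change was 0.75 with a pseudocount of 1. By the RefSeq gene order, Krt15 lies between Krt13 and Krt19 on chromosome 11, so that these 3 neighbours had log2 fold changes of 1.34, -0.93 and 0.04. Krt79 is the neighbour of Krt4 on chromosome 15. Krt10 (log2 fold change 0.16), Krt23 (-0.15) and Krt80 (0.51) were at 2.3 to 4.6 FPKM and did not pass (limma adjusted p 0.742, 0.746 and 0.39).

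Genes that work with keratins were compared by lists. Of 13 genes of desmosomes and their linkers, the junctions that anchor keratin filaments, 12 were tested and 0 were called, with a median log2 fold change of 0.10 against -0.05 over all tested genes, and 2 had an unadjusted p under 0.05 in limma, as did 15.2% of all tested genes. The most abundant were Jup (38.4 ± 6.21 and 35.5 ± 2.1 FPKM in Control and Shh-Stk11, SD, n = 2) and Pkp4 (30.3 ± 0.152 and 35.4 ± 0.317 FPKM). Of 22 other genes of basal cells and their basement membrane contacts, 18 were tested and 0 were called, with a median of -0.06 and 2 at an unadjusted p under 0.05 in limma. The most abundant was Bcam, a laminin receptor (243 ± 2.75 and 213 ± 9.74 FPKM).

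Of 14 squamous and cornified genes in the table, 7 were tested and 1 was called, against 2.27% of all tested genes. Anxa8, which encodes an annexin, was at 18.16 and 18.77 FPKM in the Controls against 5.496 and 5.265 FPKM without epithelial STK11, a log2 fold change of -1.76 with an adjusted p of 0.00329 in limma, a call lost in 1 of 15 alternatives (replicate number as a block, adjusted p 0.0505). The 7 had a median log2 fold change of -0.33, 6 were negative, and 3 had an unadjusted p under 0.05 in limma, against 15.2% of all tested genes. Tgm1, the other most abundant gene of the list, overlapped between the genotypes (11.7 ± 3.36 and 11.1 ± 5.42 FPKM). Sprr1a, the single tested gene of the list with a positive log2 fold change and named after its values were seen, was at 0.315 and 0.38 FPKM in the Control libraries and at 1.17 and 2.99 FPKM in the Shh-Stk11 libraries, with a limma adjusted p of 0.0717.

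Other sources of keratin RNA in whole lungs were examined through markers, whose part in the results was not tested. All 22 general epithelial genes were tested and 0 were called, 20 of them with a positive log2 fold change against 41.7% of all tested genes (median 0.25, and 8 with an unadjusted p under 0.05 in limma, against 15.2%), and their summed level was 1150 and 1165 FPKM in the Controls and 1347 and 1401 FPKM in the Shh-Stk11 libraries. The most abundant were Nkx2-1 and Spint2 (153 ± 5.75 and 162 ± 2.17 FPKM). The mesothelium that covers the lung also makes simple keratins. Of its 10 markers 9 were tested and 0 were called (median -0.28, 4 at an unadjusted p under 0.05 in limma, against 15.2% of all tested genes), with summed levels of 129.7 and 110.9 FPKM in the Controls and 70.99 and 88.1 FPKM in the Shh-Stk11 libraries, led by Msln (64.4 ± 12.35 and 36.5 ± 9.54 FPKM) and Upk3b (17.5 ± 0.245 and 12.97 ± 1.09 FPKM). Msln was called without Shh-Stk11 2 (log2 fold change -1.10, limma adjusted p 0.0398).

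Neighbouring organs could add stratified keratins. Whether the markers listed for them are particular to those organs was not tested. The 7 esophageal markers summed to 0.951 and 0.778 FPKM in the Controls and 1.76 and 2.03 FPKM in the Shh-Stk11 libraries. Most of this was Krt13, the single tested one, so that the sum largely repeats the Krt13 values given above. Sox21, next in level, was at 0.183 and 0.194 FPKM against 0.0631 and 0.0921 FPKM, and 2 of the 7 were listed at 0 in every library. Among 5 thymic markers, 3 were tested and 0 were called (1 at an unadjusted p under 0.05 in limma). The defining gene Foxn1 was at most 0.0229 FPKM in any library, and the summed levels of 9.65 and 9.45 against 12.1 and 15.3 FPKM came mostly from Cd83 (6.7 ± 0.519 and 10.5 ± 2.52 FPKM) and Ccl25 (2.02 ± 0.146 and 1.95 ± 0.293 FPKM).

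More genes of the differentiated airway lineages were called, where 1.29% of all tested genes were called lower and 0.98% higher. Of 14 multiciliated cell genes, 10 were called, each lower (Foxj1, Ccdc40, Tekt1, Tekt2, Lrrc23, Spag6, Rsph1, Rsph4a, Mlf1 and Ccdc113), with log2 fold changes from -1.03 for Mlf1 to -2.02 for Lrrc23, and the abundant Tppp3 (66.1 ± 2.88 and 43.2 ± 6.2 FPKM) was not called (limma adjusted p 0.0904). Rfx3, named after its values were seen, was the single gene of the list with a positive log2 fold change (0.69, limma adjusted p 0.134). Among the 10 called genes, the call was lost in 9 of 15 alternatives for Mlf1, in 6 of 14 for Rsph4a and in 4 of 14 for Ccdc40, and in at most 1 for each of the other called genes. Of 9 tested secretory genes 3 were called, each lower: Scgb3a2 (-1.41), Upk3a (-1.49) and Cckar (-0.76), and Scgb1a1 was at 162 ± 84.04 and 391.6 ± 112 FPKM (limma adjusted p 0.144). The call was lost in 11 of 15 alternatives for Cckar, in 10 of 15 for Scgb3a2 and in 3 of 15 for Upk3a.

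Endothelial and mesenchymal cells kept Stk11, and 0 of their listed genes were called. The median log2 fold change was -0.38 over 10 endothelial genes (6 at an unadjusted p under 0.05 in limma, against 15.2% of all tested genes, with Pecam1 at 181 ± 22.2 and 145 ± 14.8 FPKM and Ramp2 at 175 ± 6.17 and 122 ± 9.17 FPKM) and -0.19 over 12 mesenchymal genes (4 at an unadjusted p under 0.05 in limma, with Tcf21 at 317 ± 67.5 and 221 ± 31.9 FPKM and Col3a1 at 246 ± 4.71 and 214 ± 28.3 FPKM). Of 16 other intermediate filament genes 8 were tested and 0 were called (median -0.16, 3 at an unadjusted p under 0.05 in limma). Vim, the filament gene of mesenchyme, was at 1239 ± 45.5 and 955 ± 172 FPKM, and Lmnb1 of the nuclear lamina was at 86.6 ± 18.3 and 83.7 ± 18.04 FPKM (SD, n = 2 each).

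Reads of near-identical copies limit some of these levels. Of the 50-base stretches of the longest annotated Krt8 transcript, 29.7% also occur in a transcript of another gene, mostly of the pseudogene Krt8-ps. The share was 14.4% for Krt14 (mostly Krt16, listed at 0 in every library), 12.2% for Krt5 (mostly Krt6a, at 0.0384 to 0.103 FPKM) and 3.99% for Krt17, while it was at most 0.72% for Krt4, Krt7, Krt15, Krt18, Krt19 and Trp63. How such reads were assigned was not given in the sources used here.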

How the data were processed

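Total RNA of E16.5 lungs was sequenced by the authors as single-end 50-base reads. The submitters' processing notes name TopHat2 2.0.13, Cufflinks 2.2.1 and the builds GRCm38 and mm9, without roles. The authors deposited 1 table of FPKM values, with 4 columns that each matched a label. Neither the gene annotation nor a scaling between libraries is given in the sources used here.

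Genotype was the only term of a model fitted across all 13770 genes whose mean reached 0.5 FPKM, on log2(FPKM + 0.1), with lmFit and eBayes with a trend (limma 3.58.1, R 4.3.3; 2 residual and 4.48 prior degrees of freedom). Tests were two-sided, with Benjamini-Hochberg adjustment over all tested genes and a threshold of 0.05. A log2 fold change on this scale understates the change of low genes. Sums, shares and ratios were compared by exact permutation tests over libraries.

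FPKM became estimated reads through the depth at which low values of genes with 1 annotated transcript of at least 2000 bases came out whole, after taking 220 bases off the length. Within 0.1 reads of a whole number were 75.1% to 80.9% of such values. Transcript lengths and GC content came from GENCODE M21 (20242 genes matched by symbol, 1917 by RefSeq synonym, 397 not matched).

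The members and lists were chosen with earlier results of these data known. Named are the members, Stk11, other tested keratins, genes of the lists that were called or were the 2 most abundant, and the genes nearest to a called member. The values of 1 gene that this rule names are not reported here. The planned ratios with Krt5 were left out for its few reads. The alternatives tried were a pseudocount of 1 or 0.01, a filter at 0.1 or 5 FPKM or no filter, quantile and median-ratio scaling, removal of a spline trend on length and GC content, centring on the general epithelial genes, eBayes without the trend, replicate number as a block, and leaving out each library.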

Additional observations from a re-analysis of the deposited data

How the results depend on the processing

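Each genotype had 2 libraries, and Krt5, Krt14, Krt17 and Trp63 rested on at most 33.5 estimated reads in any library. The number of members called, 1 (Krt15), was 0 with no filter and 0 with the replicate block, and it ranged from 0 to 1 when 1 library was left out (1 without Shh-Stk11 2 and 0 without any other library). The number of other keratins called, 1 (Krt79), was 0 with a filter of at least 5 FPKM (which Krt79 did not pass), 0 with no filter, 0 with the replicate block and 2 with eBayes without the trend (Krt13 and Krt79), and it ranged from 0 to 1 in the same way when 1 library was left out. The replicate block cut the calls over all genes from 313 to 13. Deviations of libraries with the same number had a correlation of -0.114, so the labels' numbers were not taken as pairs. Over all genes the calls also differed from 313 by more than 1.5 times with no filter (61), with the length and GC trend removed (186), with a filter of at least 5 FPKM (200), and without Control 1 (109) or Control 2 (104).

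Centring on the general epithelial genes put the median of all genes at -0.28 and the calls at 56 higher and 354 lower, against 135 and 178, and the split was 110 and 90 with a filter of at least 5 FPKM. The centring subtracts 0.235 from every log2 fold change, which gave -0.14 (Krt4), -0.14 (Krt7), -0.033 (Krt8), -0.085 (Krt18) and -0.19 (Krt19). It also reversed Krt10 (-0.079), Pkp4 (-0.01), Nkx2-1 (-0.023) and Spint2 (-0.15), and with it Msln (limma adjusted p 0.0387), Ramp2 (0.0397) and Tppp3 (0.024) were called. With the length and GC trend removed, Krt23 (0.0055), Jup (0.048), Tgm1 (0.0084) and Lmnb1 (0.099) turned positive, and the log2 ratio of Krt7 to Krt19 differed by -0.046. The difference in share went from 0.225 to -0.875 percentage points for Krt7 and from -0.76 to -0.247 for Krt19. Lmnb1 was also positive after quantile normalization (0.064). The causes were not tested.

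When 1 library was left out, log2 fold changes ranged from -0.41 to 0.60 for Krt4, from -0.13 to 0.31 for Krt7, from 0.037 to 0.37 for Krt8, from -0.032 to 0.33 for Krt18, from -0.17 to 0.25 for Krt19, from -0.0074 to 0.32 for Krt10, from -0.28 to -0.024 for Krt23, from 0.25 to 0.76 for Krt80, from -0.27 to 0.061 for Jup, from -0.66 to 0.37 for Tgm1, from -0.20 to 0.094 for Ccl25 and from -0.27 to 0.17 for Lmnb1. The difference of the summed keratin level, 57 FPKM, ranged from -70.5 (without Shh-Stk11 2) to 185 FPKM (without Shh-Stk11 1). That of the Krt7 share ranged from -0.25 (without Control 2) to 0.70 percentage points (without Control 1). For the Krt19 share it ranged from -1.08 (without Shh-Stk11 2) to -0.436 percentage points (without Shh-Stk11 1). Ratios of Krt14 and Krt17 could not be had in the rescaled tables, which hold tested genes alone.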
